A study of Mus musculus with 12 samples.

Results

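The genes described here are 8 enzymes, receptors and channels grouped under the handling of ATP and adenosine: Entpd1, Nt5e, P2rx7, P2rx4, P2ry10, Adora2a, Ada and Panx1. They were taken by symbol from the 55291 gene symbols of the deposited count table, and all 8 were found and passed the filter on low counts in every comparison. RNA of mouse CD8+ T cells was sequenced in 12 libraries, 3 of each of 4 groups, all from spleen and lymph nodes of WT male mice. The rat tail collagen group (RatCol, 2 mg/mL) and the bovine collagen group (Nutragen, 2 mg/mL) were activated cells held in a gel for the last 24 h, and the media group was the same kind of activated cell held without a gel for that time. Activation in these 3 groups was with anti-CD3 bound to the plate and soluble CD28 for 2 days, then recombinant mouse IL-2 for 1 day, and RNA was taken on day 4. The naive group was lysed on day 0 without activation, so media against naive differs at once in activation, IL-2, culture and time. Cells of the gel groups were recovered from the gel before lysis, so the gel and its recovery step cannot be told apart. No strain or age is given for the mice in the labels.

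ATP leaves stressed or activated cells through channels such as the one made by Panx1, and outside the cell it opens the ATP-gated cation channels encoded by P2rx7 and P2rx4. The ectoenzyme CD39, encoded by Entpd1, cuts ATP and ADP to AMP, and CD73, encoded by Nt5e, cuts AMP to adenosine. Adenosine acts through the receptor encoded by Adora2a, which raises cAMP and is known to dampen T cells, and adenosine deaminase, encoded by Ada, turns it into inosine. P2ry10 encodes a G-protein-coupled receptor of the same family as nucleotide receptors, known for binding lysophosphatidylserine.

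Library totals ran from 28483064 to 53138362 counts. Levels are in CPM, counts relative to library size, on 1 TMM scale over the 12 libraries, where TMM is a scaling factor for library composition. Cd8a was at 527 to 658 CPM in rat tail collagen, 635 to 748 CPM in bovine collagen, 639 to 760 CPM in media and 926 to 1070 CPM in naive libraries, while Cd4 was at 8.16 CPM in naive library 1 and at most 3.87 CPM in the others. The summed level of the 3 CD4 T cell markers, with none at 0, was 51.1 to 62.1 CPM in rat tail collagen, 25.2 to 36.1 CPM in bovine collagen, 21.7 to 37.7 CPM in media and 8.8 to 19.0 CPM in naive libraries, and most of it in the day 4 libraries was Zbtb7b. Ribosomal RNA took 6.54% to 18.6% of counts in rat tail collagen, 7.66% to 18.6% in bovine collagen, 5.19% to 5.8% in media and 4.52% to 7.0% in naive libraries. Rat tail collagen stood apart in the share of Malat1, a nuclear RNA, at 1.11% to 1.47%, against 0.195% to 0.276% in bovine collagen, 0.179% to 0.295% in media and 0.678% to 0.857% in naive libraries. Mitochondrial genes took 1.7% to 2.39% in rat tail collagen, 1.41% to 1.64% in bovine collagen, 1.34% to 1.63% in media and 1.44% to 1.95% in naive libraries. Of 7 myeloid markers the summed level was 17.7 to 24.4 CPM in rat tail collagen, with Csf3r at 0, 9.7 to 10.5 CPM in bovine collagen, 9.14 to 10.2 CPM in media and 33.8 to 123 CPM in naive libraries, the last led by naive library 1. Most of the sum in rat tail collagen was Cd68, at 17.5, 15.9 and 22.9 CPM, and 2 of the 7 markers averaged 1 CPM or more there. Itgam was lower in rat tail collagen, at 1.91, 0.862 and 0.481 CPM, than in media, at 3.97, 3.09 and 2.03 CPM. Cd14 was higher, at 1.07, 0.778 and 0.848 CPM, against 0.153, 0.0713 and 0.0436 CPM in media. So was Adgre1, at 0.358, 0.135 and 0.141 CPM, against at most 0.0476 CPM in media. Lyz2, Csf1r and Csf3r were at most 0.134 CPM in both groups. These shares and marker levels move with the groups, and apart from ribosomal RNA their part in the results was not tested. With ribosomal RNA genes removed, no member's call in rat tail collagen against media changed. Another alternative left out the 3 libraries of highest ribosomal RNA share, which leaves 1 rat tail collagen library. Bulk RNA cannot tell fewer cells of a type from less RNA per cell. Whether libraries came from separate animals is stated only as n = 3 per group, so p-values measure the spread between these libraries.

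The promoters of Entpd1 and P2ry10 are shown because these genes had the largest increase and the largest decrease among the 8 in rat tail collagen against media. Each line gives the 250 bases before the first RefSeq start (GRCm38.p6, + strand), and capitals mark TGACG or its reverse complement CGTCA, the core of the cAMP response element.
Entpd1, chr19:40612116-40612365: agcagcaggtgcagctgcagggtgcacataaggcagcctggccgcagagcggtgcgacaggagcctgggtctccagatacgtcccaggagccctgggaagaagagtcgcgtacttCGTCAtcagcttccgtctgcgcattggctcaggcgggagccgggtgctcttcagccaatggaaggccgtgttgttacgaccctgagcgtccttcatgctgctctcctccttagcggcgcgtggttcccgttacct
P2ry10, chrX:107088242-107088491: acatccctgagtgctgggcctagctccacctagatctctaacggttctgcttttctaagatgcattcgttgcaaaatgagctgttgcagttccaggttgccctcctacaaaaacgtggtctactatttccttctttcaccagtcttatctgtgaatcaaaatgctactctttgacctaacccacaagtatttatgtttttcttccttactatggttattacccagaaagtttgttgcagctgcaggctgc

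The Entpd1 window held 1 such core, and so did the window of its second start, while the first P2ry10 window held none and its second window 1. Over the 10 windows of the 7 members that RefSeq's table lists, 5 windows of 4 members held the core (Entpd1, P2rx4, Panx1 and P2ry10), and 17.8% of all 32851 windows did. The 4 other motifs searched on both strands were TGANTCA for AP-1, TGACGTCA for the full cAMP response element, which contains the core on both strands, GGAAA for the NFAT core and GGGCGG for the GC box. The AP-1 motif was in 2 of the 10 windows of members and 6.75% of all windows, and the full element in 0 of 10 and 1.55%. The NFAT core was in 6 of 10 windows and 55.6% of all, and the GC box in 3 of 10 and 32.7%. A match is a description of letters only.

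**Figure D1:**
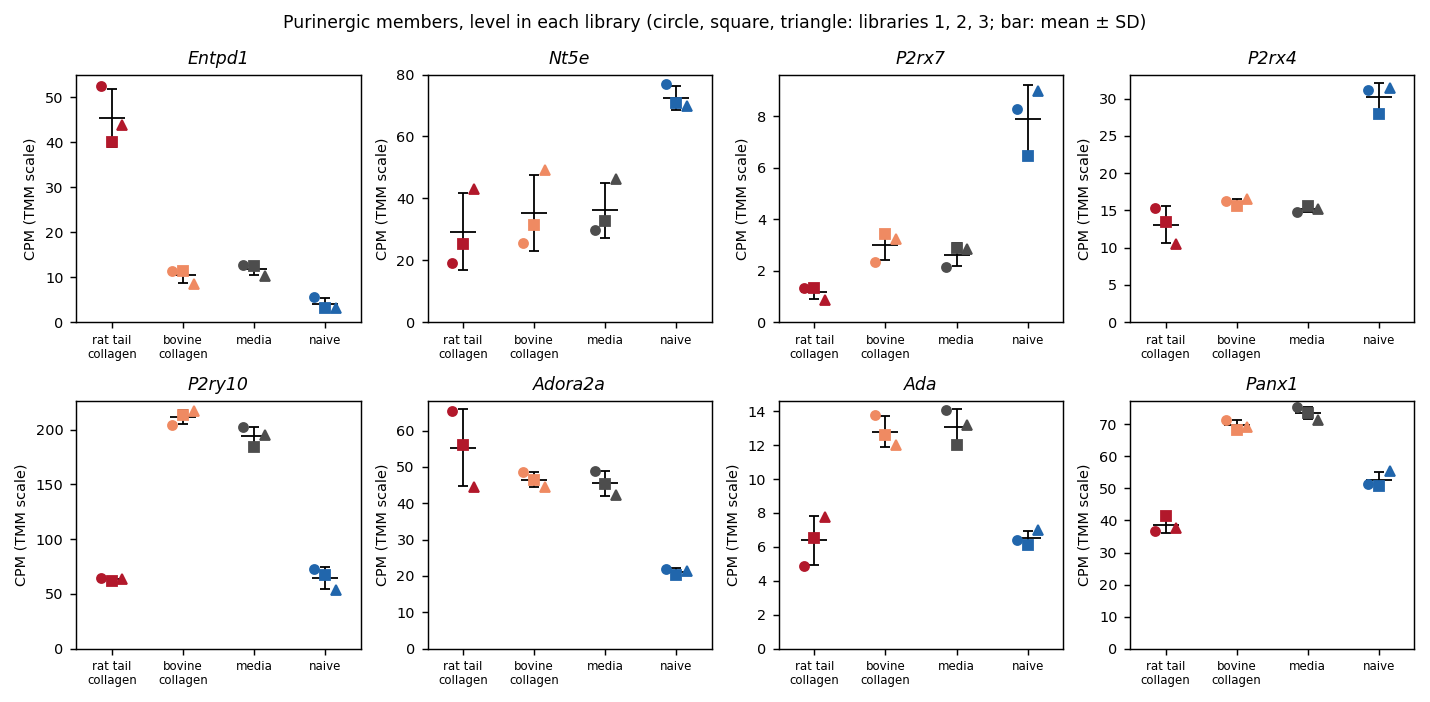
Levels of the 8 genes in CPM (TMM scale) in each of 12 libraries by group, with bars for mean ± SD of 3 libraries. Rat tail collagen libraries stood alone at 40.0 to 52.6 CPM for Entpd1, and for P2ry10 they sat at 61.9 to 64.3 CPM beside naive libraries at 53.1 to 72.6 CPM.

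Rat tail collagen against media asks what a rat tail gel does to activated cells over the last 24 h. Entpd1 rose and P2rx7, P2ry10, Ada and Panx1 fell in rat tail collagen. Adora2a was called higher by a narrow margin, and that call held in only 10 of 21 alternative settings. Nt5e and P2rx4 did not pass the test. By edgeR's quasi-likelihood test with Benjamini-Hochberg adjustment, 2 of 8 members were called higher and 4 lower at an adjusted p under 0.05, or 75.0%, against 58.4% of the 19392 genes tested (29.7% higher and 28.7% lower). That background is high, so the count itself says little about these genes.

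Of the ectoenzymes, Entpd1 had 52.6, 40.0 and 43.8 CPM in rat tail collagen libraries 1 to 3, against 12.8, 12.5 and 10.2 CPM in media libraries. In bovine collagen it had 11.5, 11.5 and 8.42 CPM, against 5.64, 3.11 and 3.11 CPM in naive libraries. Every rat tail collagen library lay above every other library, and bovine collagen overlapped media. The rise over media was 3.88-fold, a log2 fold change of 1.96 (SE 0.14, adjusted p 6.65e-07). The order of its mean levels was rat tail collagen at 45.5, media at 11.8, bovine collagen at 10.5 and naive at 3.95 CPM. Naive library 1, which led the myeloid markers, also had the highest Entpd1 level of the naive libraries, and without it the log2 fold change of media against naive was 1.91 in place of 1.58.

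Nt5e, the other step of the pair, had 19.1, 25.4 and 43.1 CPM in rat tail collagen, against 29.7, 32.6 and 46.3 CPM in media. In bovine collagen it had 25.6, 31.3 and 49.2 CPM, against 77.0, 70.7 and 69.8 CPM in naive libraries. All 3 day 4 groups overlapped, and in each of them library 3 was the highest. The log2 fold change of rat tail collagen against media was -0.29 (SE 0.35, adjusted p 0.501), and it was -0.68 without rat tail collagen library 3 and -0.06 without rat tail collagen library 1, neither called. With the replicate number as a block it was -0.34 (adjusted p 0.00691), and each rat tail collagen library was below the media library of its number. Foxp3, the defining gene of regulatory T cells, was also highest in library 3 of each day 4 group, at 3.58, 4.04 and 19.2 CPM in rat tail collagen, 0.535, 0.888 and 4.43 CPM in bovine collagen and 0.498, 0.904 and 4.31 CPM in media. It was at 4.22, 2.36 and 2.52 CPM in naive libraries, where Nt5e was highest. Other regulatory T cell markers were mixed. In rat tail collagen Ikzf4 was also highest in library 3, at 18.6 CPM, against 12.4 CPM in library 1. Ikzf2, at 168, 159 and 76.4 CPM, and Tnfrsf4, at 41.9, 36.4 and 35.9 CPM, were lowest in library 3 there. In media and bovine collagen, Ikzf2 was highest in library 3 and Tnfrsf4 lowest. Ikzf4 was highest in library 3 of media but not of bovine collagen. The summed level of the 4 regulatory T cell markers was 150 to 226 CPM in rat tail collagen, 162 to 186 CPM in bovine collagen, 149 to 167 CPM in media and 35.5 to 48.5 CPM in naive libraries, with none at 0, and its part in the Nt5e values was not tested.

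Of the ATP-gated channels, P2rx7 had 1.31, 1.32 and 0.876 CPM in rat tail collagen, against 2.13, 2.90 and 2.85 CPM in media. It had 2.34, 3.43 and 3.25 CPM in bovine collagen and 8.28, 6.47 and 8.97 CPM in naive libraries. Rat tail collagen was below all other groups without overlap, by a log2 fold change of -1.14 from media (SE 0.23, adjusted p 0.00114). These levels rest on 44, 78 and 31 counts in rat tail collagen, against 111, 122 and 131 counts in media. Without the 3 libraries of highest ribosomal RNA share, which leaves 1 rat tail collagen library, the value was -0.98 and was no longer called (adjusted p 0.0591).

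P2rx4 lies next to P2rx7 on the + strand of chromosome 5, with 16111 bases between the genes. It had 15.3, 13.5 and 10.5 CPM in rat tail collagen, against 14.8, 15.6 and 15.2 CPM in media. It had 16.2, 15.6 and 16.5 CPM in bovine collagen, against 31.2, 27.9 and 31.4 CPM in naive libraries. Rat tail collagen overlapped media at a log2 fold change of -0.20 (SE 0.12, adjusted p 0.177). Without rat tail collagen library 1 the difference was called, at -0.32 (adjusted p 0.0381), and without rat tail collagen library 3 it was -0.06 (adjusted p 0.591).

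P2ry10 had 64.3, 61.9 and 63.2 CPM in rat tail collagen, against 202, 184 and 195 CPM in media. It had 204, 213 and 217 CPM in bovine collagen and 72.6, 67.5 and 53.1 CPM in naive libraries. Rat tail collagen fell to the range of naive libraries and overlapped them. The log2 fold change from media was -1.60 (SE 0.07, adjusted p 1.17e-08), a 3.03-fold lower level, and its direction and call held in all 21 alternatives. Adora2a had 65.5, 56.1 and 44.4 CPM in rat tail collagen, against 49.0, 45.2 and 42.2 CPM in media. Its levels were 48.6, 46.4 and 44.6 CPM in bovine collagen and 21.9, 20.2 and 21.4 CPM in naive libraries. Rat tail collagen library 3 lay within the media range. The log2 fold change from media was 0.30 (SE 0.12, adjusted p 0.0489), and it turned to -0.41 (adjusted p 0.00897) with offsets for each library's trend on GC content and length. Those offsets also moved the median of all genes to -0.20. With offsets centred on 0 the Adora2a value was -0.20 and was not called (adjusted p 0.182).

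Ada had 4.89, 6.54 and 7.77 CPM in rat tail collagen, against 14.1, 12 and 13.2 CPM in media. It had 13.8, 12.6 and 12 CPM in bovine collagen and 6.43, 6.11 and 6.99 CPM in naive libraries. Like P2ry10, it overlapped the naive range in rat tail collagen, and it was below media without overlap by a log2 fold change of -1.01 (SE 0.15, adjusted p 1.19e-04). Panx1 had 36.6, 41.5 and 37.7 CPM in rat tail collagen, against 75.3, 73.7 and 71.5 CPM in media. It had 71.5, 68.4 and 69.3 CPM in bovine collagen, against 51.4, 50.9 and 55.6 CPM in naive libraries. Rat tail collagen was the lowest group, below naive as well, and its log2 fold change from media was -0.91 (SE 0.07, adjusted p 5.39e-07).

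In all, 5 of 8 members had rat tail collagen and media ranges that did not overlap, against 65.1% of genes tested. The median log2 fold change was -0.60 over the members and -0.01 over all genes tested.

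**Figure D2:**
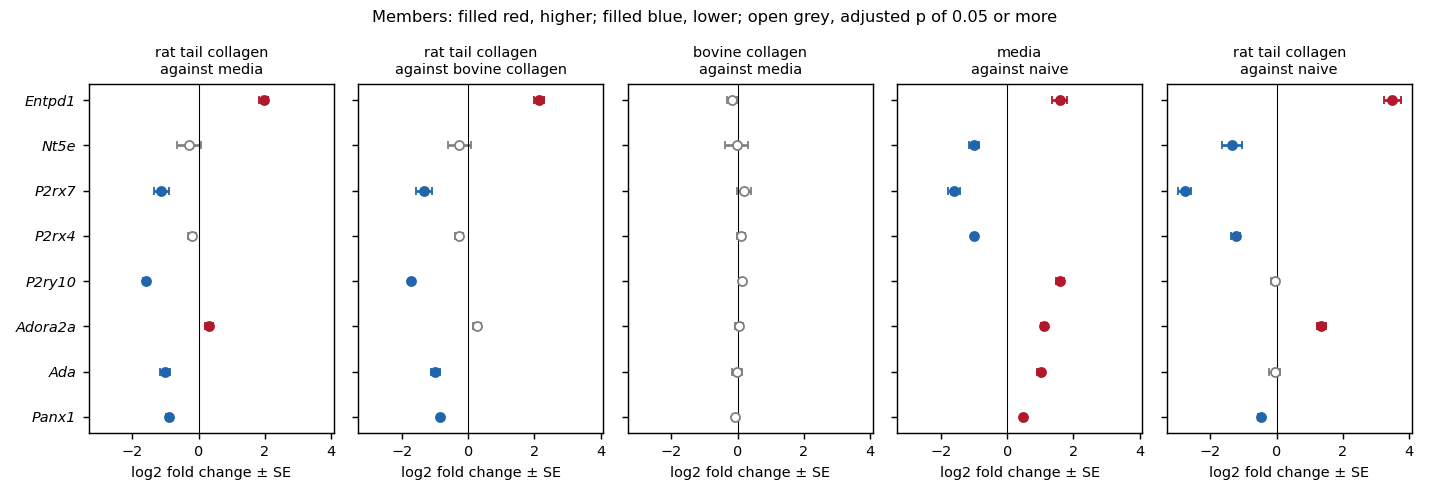
Log2 fold change ± SE of the 8 genes in 5 comparisons from edgeR, filled where the adjusted p was under 0.05. Entpd1 was at 1.96 against media and 2.13 against bovine collagen, and bovine collagen against media had no filled point. The filled Adora2a point at 0.30 turned negative with offsets for GC content and length, and was not called with the centred version of them.

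Bovine collagen against media asks whether a gel of another source does the same. None of the 8 members was called by edgeR, with all adjusted p at 1, and 0 passed an unadjusted p under 0.05. DESeq2 and limma-voom called 0 as well. Over all genes 0.0206% were called (4 of 19392), and 810 genes (4.18%) had an unadjusted p under 0.05. The smallest unadjusted p of the 8 was 0.068 for P2ry10, whose log2 fold change was 0.13 (SE 0.07). Entpd1 differed by -0.18 (SE 0.15) and P2rx7 by 0.20 (SE 0.21), and Nt5e by -0.02 with the widest error (SE 0.35). The groups did not overlap for P2rx4 and P2ry10, higher in bovine collagen, and Panx1, lower, or 3 of 8 against 9.24% of genes tested. For P2rx4 and Panx1 the nearest libraries of both groups were the same at 3 digits, 15.6 CPM and 71.5 CPM. A missed threshold does not show that the levels were alike.

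Rat tail collagen against bovine collagen compares the gels with each other and shares its rat tail collagen libraries with the comparison above, so the values stand side by side only. Entpd1 rose by a log2 fold change of 2.13 (adjusted p 4.85e-07), and P2ry10 (-1.73, adjusted p 8.71e-09), P2rx7 (-1.34, adjusted p 4.37e-04), Ada (-0.99, adjusted p 1.79e-04) and Panx1 (-0.84, adjusted p 1.16e-06) fell. Nt5e was at -0.27 (adjusted p 0.546), P2rx4 at -0.29 (adjusted p 0.0618) and Adora2a at 0.26 (adjusted p 0.0896). With the replicate number as a block all 8 members were called, and so were 11402 of 19392 genes tested. The 5 calls without the block, among 8, stand against 54.7% of genes tested, with 1 higher against 28.4% and 4 lower against 26.4%. The ranges of 6 members did not overlap, against 63.9%. Without the 3 libraries of highest ribosomal RNA share P2rx7 was at -1.08 and was no longer called (adjusted p 0.0587).

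Media against naive sets activated, cultured cells beside resting ones. All 8 members passed the test, against 60.8% of 18610 genes tested, with 5 higher against 31.6% and 3 lower against 29.2%, and no pair of ranges overlapped, against 67.6%. P2ry10 rose by a log2 fold change of 1.58 (adjusted p 4.80e-06), Entpd1 by 1.58 (adjusted p 3.63e-04), Adora2a by 1.10 (adjusted p 5.47e-06), Ada by 1.01 (adjusted p 6.26e-05) and Panx1 by 0.48 (adjusted p 2.48e-04). P2rx7 (-1.60, adjusted p 6.66e-05), Nt5e (-1.01, adjusted p 3.28e-04) and P2rx4 (-0.99, adjusted p 8.79e-06) fell. Among the 8, RNA of both ATP-gated channels and of CD73 was thus lower in media. RNA of the adenosine receptor and of adenosine deaminase was higher.

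Rat tail collagen against naive shares its libraries with comparisons above. Entpd1 rose by 3.49 on the log2 scale, an 11.2-fold higher level (adjusted p 1.15e-05), and Adora2a by 1.35 (adjusted p 1.11e-05). P2rx7 (-2.78, adjusted p 8.93e-07), Nt5e (-1.35, adjusted p 0.00905), P2rx4 (-1.24, adjusted p 1.33e-05) and Panx1 (-0.48, adjusted p 1.71e-04) fell. P2ry10 (-0.06, adjusted p 0.599) and Ada (-0.06, adjusted p 0.771) did not pass, although without naive library 3 P2ry10 was called at -0.19 (adjusted p 0.0229). The 6 calls stand against 71.9% of genes tested, with 2 higher against 36.5% and 4 lower against 35.4%, and 6 members did not overlap, against 76%.

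**Figure D3:**
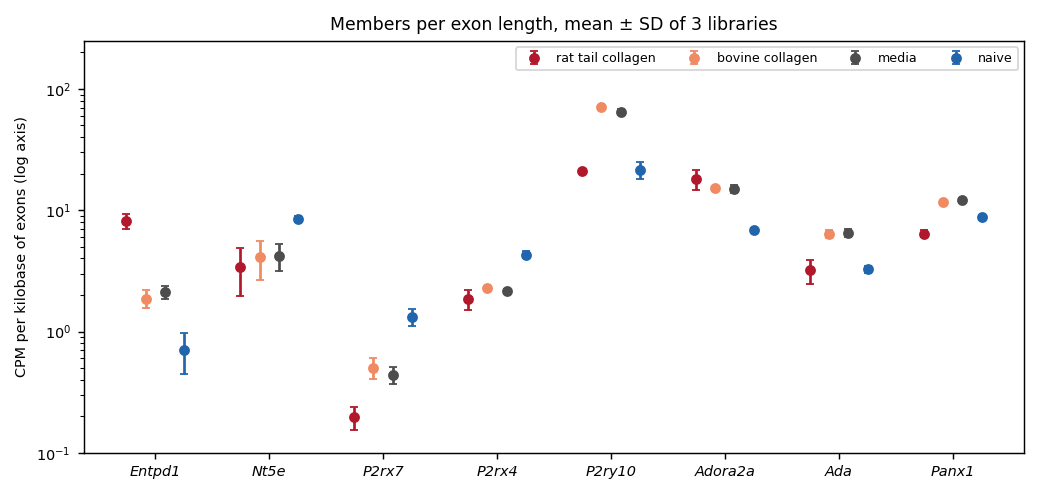
Mean ± SD of 3 libraries in CPM per kilobase of merged exons on a log axis, so that genes can be set beside each other. P2ry10 was the highest in all 4 groups, at 21.2 in rat tail collagen and 65.0 in media, and P2rx7 was the lowest in the 3 activated groups at 0.196 to 0.504.

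To set genes beside each other, levels were divided by the length of merged exons (GENCODE M21, GRCm38). In CPM per kilobase Entpd1 was at 8.15 in rat tail collagen, 1.87 in bovine collagen, 2.12 in media and 0.708 in naive cells. Nt5e was at 3.40 in rat tail collagen, 4.11 in bovine collagen, 4.21 in media and 8.43 in naive cells. By mean level per length, the RNA of the ATP-cutting enzyme was thus above that of the AMP-cutting enzyme in rat tail collagen and below it in the other 3 groups. Adora2a was at 18.1 in rat tail collagen, 15.2 in bovine collagen, 14.9 in media and 6.91 in naive cells, while Adora1, Adora2b and Adora3 averaged at most 0.357 CPM in any group.

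In the annotation, 2 of the 8 genes overlap other loci. P2rx7 holds Mir8115 on the same strand, with 119 shared exon bases, and Entpd1 (chromosome 19, 40612366 to 40741602, + strand, 17 merged exons) holds 3 annotated loci on the same strand with 0 shared exon bases. P2ry10 lies on chromosome X from 107088492 to 107104974, on the + strand, with 4 merged exons. Ada lies on the - strand of chromosome 2 and Panx1 on the - strand of chromosome 9, where Nt5e lies on the + strand, and Adora2a lies on the + strand of chromosome 10.

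Around the 8 genes stands a list of 95 other genes, called the purinergic list here. It also holds 18 genes of cAMP signalling and 5 inflammasome genes, so it is wider than purine handling itself. Of the 95 genes, 93 were in the table and 73 were tested among day 4 libraries. In rat tail collagen against media 18 rose and 33 fell, with a median log2 fold change of -0.23 against -0.01 over all genes, and 69.9% called against 58.4%. The 6 of smallest adjusted p were Art2b, Slc29a3, Calhm6, Entpd5, Nt5c3b and Pde4b, and the same 6 came out in rat tail collagen against bovine collagen.

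**Figure D4:**
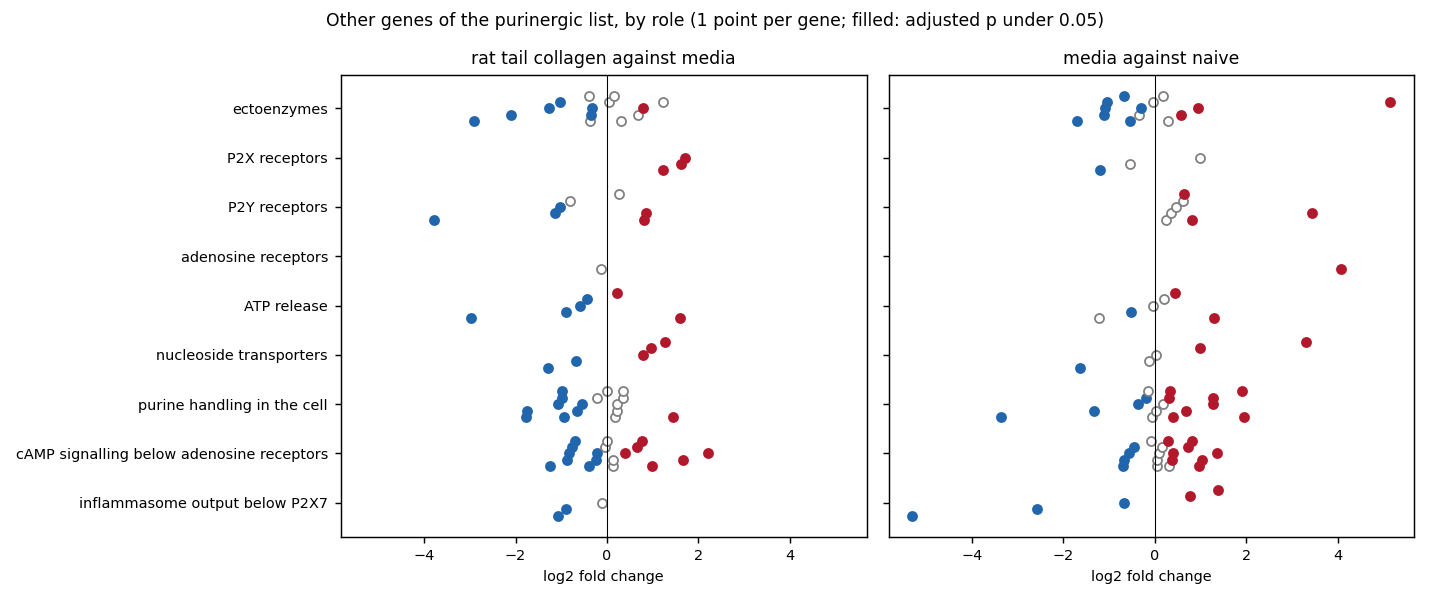
Log2 fold change of each gene of the purinergic list by role, left for rat tail collagen against media, right for media against naive, filled where the adjusted p was under 0.05. Of 73 genes tested against media, 18 were higher and 33 lower, and against naive 29 of 75 were higher and 21 lower.

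Art2b, an ecto-ADP-ribosyltransferase that in mouse T cells modifies the P2rx7 protein, had 7.49, 8.35 and 5.63 CPM in rat tail collagen, against 54.1, 53.3 and 57.0 CPM in media. All rat tail collagen libraries were below all others, by a log2 fold change of -2.91 (SE 0.12, adjusted p 8.15e-09) from media. Slc29a3, a nucleoside transporter of lysosomes, had 85.7, 87.2 and 79.0 CPM in rat tail collagen, against 33.1, 34.3 and 37.8 CPM in media, a log2 fold change of 1.28 (adjusted p 1.78e-07). Calhm6 fell, at a log2 fold change of -2.98, and so did Entpd5, an ER nucleoside diphosphatase, at -1.26, Nt5c3b, a cytosolic 5'-nucleotidase, at -0.98 and Pde4b, whose enzyme breaks down cAMP, at -1.26. In these 4 genes too, every rat tail collagen library was below every media library.

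**Figure D5:**
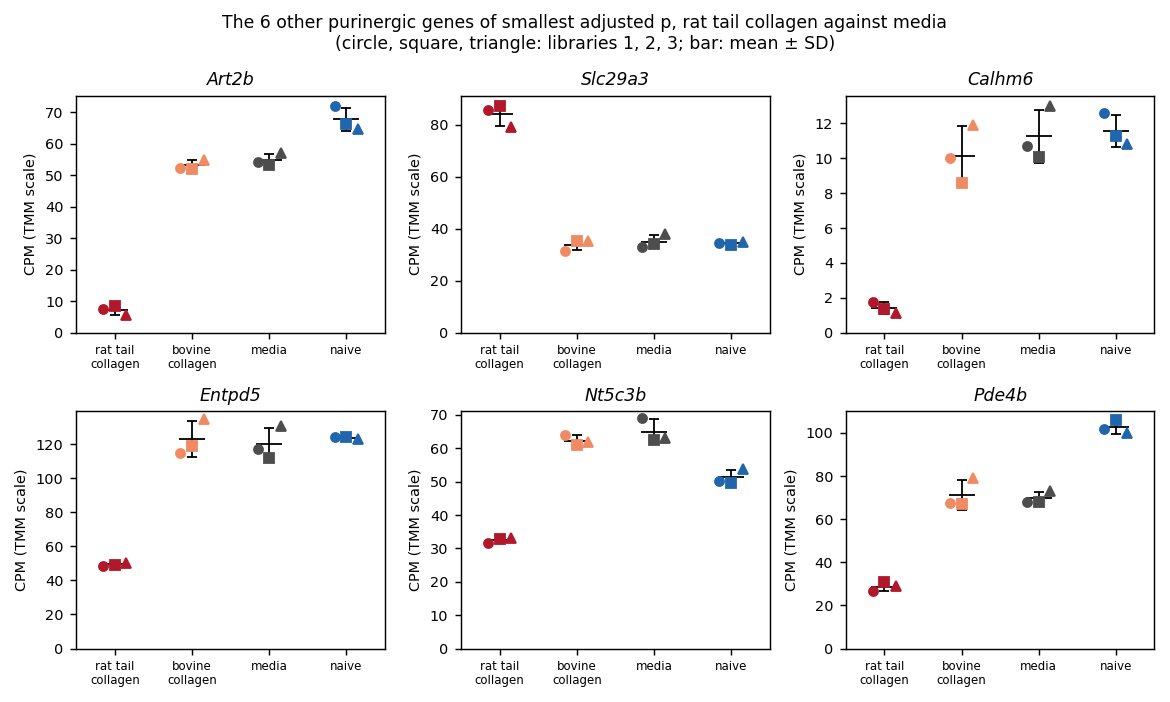
Levels in CPM (TMM scale) of the 6 genes of the purinergic list of smallest adjusted p in rat tail collagen against media, in each of 12 libraries with mean ± SD. Rat tail collagen stands apart from the other 3 groups, lower at 5.63 to 8.35 CPM for Art2b and higher at 79.0 to 87.2 CPM for Slc29a3.

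By role, calls among day 4 libraries are read beside the 58.4% of all genes called. Of 14 other genes listed as ectoenzymes, 1 rose and 6 fell in rat tail collagen. That list also holds enzymes inside the cell, such as Entpd5 of the ER. Of 16 genes of purine handling within the cell 1 rose and 8 fell. Of the cAMP genes 6 of 18 rose and 8 fell, and of 5 nucleoside transporters 3 rose and 2 fell. Of 7 other receptors of the P2ry10 family 2 rose and 3 fell, of 6 genes of ATP release 2 rose and 4 fell, and of 3 inflammasome genes 0 rose and 2 fell. The single other adenosine receptor tested, Adora3, did not pass. The 3 other ATP-gated channels tested, P2rx1, P2rx3 and P2rx5, rose, opposite in direction to P2rx7, but averaged 1.08, 0.768 and 0.512 CPM in rat tail collagen and 0.327, 0.329 and 0.171 CPM in media. Named after their values were seen, the other lysophosphatidylserine receptors did not follow P2ry10 as a group. P2ry10b rose (29.9 against 17.3 CPM in media, adjusted p 4.23e-05), Gpr174 fell (37.1 against 77.0 CPM in media, adjusted p 0.00344) and Gpr34 did not pass (9.69 against 8.13 CPM in media, adjusted p 0.508).

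In bovine collagen against media 0 of the 73 other genes were called by edgeR, and 1, Adcy6, had an unadjusted p under 0.05, against 0.0206% and 4.18% of all genes. In media against naive 29 of 75 rose and 21 fell, or 66.7% called, against 60.8% of all genes (31.6% higher and 29.2% lower). Dck and Ahcy, which salvage deoxynucleosides and split adenosylhomocysteine, rose by log2 fold changes of 1.96 and 1.90. P2ry14, a receptor for UDP-sugars, rose by 3.44 and Vdac1, the mitochondrial outer-membrane channel, by 1.29. Entpd6 fell, at a log2 fold change of -1.04, and so did Ampd3, an AMP deaminase, at -3.36, with 1.40 CPM in media against 14.3 CPM in naive libraries. In rat tail collagen against naive 32 of 74 rose and 26 fell, or 78.4% called, against 71.9% of all genes (36.5% higher and 35.4% lower). Pde4a rose by 3.51, while Pde4b (-1.87), Ampd3 (-5.16), Ampd1 (-3.14), Art2b (-3.27) and Entpd5 (-1.35) fell.

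The genes whose levels ran most like each member over the 12 libraries were found by Pearson's r of log2 CPM among 10196 candidates. The r is a description over 4 groups whose libraries differ in depth and composition. For Entpd1 they were Rab34 and Plin2 (both r = 0.99), and Plin2, which coats lipid droplets, averaged 145 CPM in rat tail collagen, 25.4 CPM in bovine collagen, 23.7 CPM in media and 7.17 CPM in naive cells. For P2ry10 they were Mtdh (0.994) and Vamp3 (0.991), for Panx1 Ubxn8 (0.994) and Tap1 (0.992), and for Adora2a Tnip3 (0.995) and Ttc21b (0.992). For P2rx7 they were C2cd2 (0.989) and Ptk2b (0.986), and for P2rx4 Arhgap30 (0.988) and Ptpre (0.981). Ada ran with Pygm and Utp3 (both 0.978), and Nt5e with Plcxd2 (0.969) and Sh2b3 (0.96), the lowest r of the 8.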

How the data were processed

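Raw counts per gene symbol were used as the authors deposited them, in 1 table for all 12 libraries. Per the labels' protocols, libraries were made from 150 ng of DNase-treated RNA after ribosomal depletion (RiboCop) with the KAPA RNA HyperPrep kit. HISAT2, featureCounts, SAMtools, Picard, MultiQC and FastQC are named in the submitters' processing notes, with GRCm38 and mm10 as builds. Their versions, the strand setting and the annotation used are not given here. Without a stated strand setting, reads of overlapping genes may be shared.

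Genes were kept by filterByExpr, scaled by TMM and tested with edgeR 4.0.16 (quasi-likelihood, robust) in R 4.3.3, with Benjamini-Hochberg adjustment over all genes tested and a call at an adjusted p under 0.05. Comparisons among day 4 groups shared 1 fit of 9 libraries, and those against naive used 6 libraries. The SE is the size of the log2 fold change over the square root of the F statistic. DESeq2 1.42.0 and limma 3.58.1 were alternatives. Replicate libraries differed beyond sampling noise, so none was merged. The procedure was also run on simulated counts.

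The members and lists were chosen with earlier results of these data known. Named were all 8 members, up to 6 genes of the purinergic list per comparison by smallest adjusted p with at least 1 CPM in the higher group, and 2 genes of most similar pattern per member with a mean of at least 5 CPM in 1 or more groups.

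The labels give the groups the same replicate numbers without saying what a number marks. Deviations from group means of same-numbered libraries correlated at 0.104, 0.103 and 0.138 between rat tail collagen and media. Between bovine collagen and media they correlated at 0.619, 0.115 and 0.672. All were above 0.1, the smallest correlation taken for a pairing, so the replicate block was read as a pairing in these comparisons. In both, 3 of 3 media libraries correlated best with their own number. The level of 0.1 is low, as libraries of different numbers reached 0.232 between naive and media, so it does not establish a pairing. It was run as an alternative only. The main fits held the group alone, so their SE and p-values take no account of pairing. Nt5e in rat tail collagen against media was called with the block and not in the main fit. The correlations did not all exceed 0.1 for rat tail collagen with bovine collagen (0.093, -0.003 and 0.111), media with naive (-0.071, 0.162 and -0.062) or rat tail collagen with naive (0.201, 0.056 and 0.166). Even so, 3 of 3 naive libraries correlated best with the rat tail collagen library of their own number. With media libraries 1 of 3 did.

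The planned correction for GC content and length was first run with offsets that shifted all genes. A version with each library's trend centred on 0 was then added with those results in view, and both are given. Promoter windows were searched for 5 motifs, each given with its count in windows of members and its share of all windows.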

Additional observations from a re-analysis of the deposited data

How the results depend on the processing

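Over 816 values of single members under alternatives, 770 kept their direction and their side of the threshold, 13 lost a call, 16 gained one and 17 changed sign. Of 204 counts of calls 199 stayed within 1.5 times. A required 1.5-fold minimum left 30 calls of the purinergic list in rat tail collagen against media, 26 against bovine collagen, 38 against naive, and 25 in media against naive. These were 41.1%, 35.6%, 51.4% and 33.3% of the list's genes tested, against 25.0%, 22.9%, 42.4% and 30.0% of all genes. The replicate block called 8 members in rat tail collagen against bovine collagen in place of 5, adding Nt5e, P2rx4 and Adora2a. Both gel groups were read as paired with media, which would pair them with each other, but their direct correlations did not all exceed 0.1. Whether the numbers pair between the gels is thus not settled. Between these groups 2 of 3 bovine collagen libraries correlated best with the rat tail collagen library of their own number. In the comparisons where the block was read as a pairing, it changed no other member's call than Nt5e in rat tail collagen against media.

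Adora2a in rat tail collagen against media was called higher in 10 of 21 alternatives, and leaving out single libraries gave 0.17 to 0.43. With the replicate block in edgeR it was 0.29 (adjusted p 0.0098). With the planned GC and length offsets it was -0.41 against media and -0.42 against bovine collagen. These offsets also shifted the median of all genes to -0.20 against media, -0.19 against bovine collagen and -0.24 in rat tail collagen against naive, and gave 34.9%, 34.1% and 39.1% of calls as higher, against 50.9%, 51.8% and 50.8% without them. They called P2rx4 at -0.44 against media (adjusted p 0.00459) and -0.52 against bovine collagen, and Ada against naive at -0.36 (adjusted p 0.049). With the centred offsets, added after seeing the data, Adora2a was -0.20 against media and -0.20 against bovine collagen, with neither called, and P2ry10 against naive was 0.084. The cause was not tested. Library totals moved the median of all genes in rat tail collagen against bovine collagen to 0.15 and the higher share of calls to 66.3%.

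The other changes of sign were in values not called. For rat tail collagen against naive, Ada was 0.0052 with library totals. Leaving out single libraries gave -0.19 to 0.023 for P2ry10 and -0.22 to 0.12 for Ada in that comparison, and -0.66 to 0.048 for Nt5e in rat tail collagen against bovine collagen. For bovine collagen against media, Adora2a was -0.047 with library totals, Nt5e was 0.055 without the 3 libraries of highest ribosomal RNA share, and leaving out single libraries gave -0.34 to 0.20 for Nt5e, -0.087 to 0.028 for Ada and -0.0081 to 0.0998 for Adora2a. Counting error weighs most on P2rx7, which had 31 to 78 counts in rat tail collagen libraries and 111 to 131 in media libraries.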
